A study of Homo sapiens with 21 samples.

Results

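Insulin and the insulin-like growth factors act on liver cells through a chain of proteins, and 10 genes of that chain were followed here across caffeine doses in HepG2, a human hepatocellular carcinoma line. They were taken by symbol: the receptors INSR and IGF1R, the docking proteins IRS1 and IRS2, the phosphoinositide 3-kinase (PI3K) subunits PIK3CA and PIK3R1, the kinases AKT1 and AKT2, and the transcription factors FOXO1 and FOXO3. All 10 were found among the 37637 features of the count table, of which 24852 could be given a gene symbol. Per the labels, the cells were moved from medium with fetal bovine serum into serum-free DMEM that held caffeine at 0 (control), 0.01, 0.1, 1, 10, 100 or 1000 µM and were harvested after 24 h. Each of the 7 groups had 3 biological replicates, which gave 21 poly(A) RNA libraries, and the labels name no insulin treatment in any group.

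In this pathway a ligand-bound receptor phosphorylates tyrosines of itself and of the IRS proteins, the regulatory subunit of PI3K docks there, and its catalytic subunit makes the membrane lipid that recruits PDK1 and AKT. Active AKT phosphorylates FOXO proteins and keeps them out of the nucleus, so that in the liver insulin lowers the transcription of gluconeogenic FOXO targets and raises that of lipogenic genes. The pathway is also regulated by transcription, and INSR and IRS2 are known FOXO targets in several tissues.

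Read totals ran from 23502519 to 44815552 per library, and levels below are CPM (counts scaled to library size, after TMM), which sets libraries of different size and composition on a common footing. A clustering of the 13 mitochondrial mRNAs put the libraries into 3 sets that partly follow dose and split 3 of the dose groups: set A held 11 libraries (all of the control, 0.01 and 0.1 µM groups and 1 µM replicates 1 and 2), set B held 7 (1 µM replicate 3, all of 10 µM, 100 µM replicate 2 and 1000 µM replicates 1 and 2) and set C held 3 (100 µM replicates 1 and 3 and 1000 µM replicate 3). The share of counts on all features of the mitochondrial chromosome was 4.72% to 4.95% for set B, lower than for set A (9.95% to 14.2%) and set C (11.8% to 12.8%). The sets were drawn from the data and are not a labelled batch. No library of 10 µM or above was in set A, and 1 µM replicate 3 was the only library below 10 µM outside it. Between the control and each of the 3 highest doses, set and dose therefore cannot be told apart except through that 1 library, on which every set-term value against the control at these doses rests. Each call of a member against the control is given beside that fit, with the set as a term, and 1000 µM was also compared with 10 µM inside set B. Of the 12 hepatocyte and HepG2 markers, ALB lay between 6110 and 15342 CPM and HNF4A between 203.5 and 301.1 CPM, while TM4SF4 stayed under 0.791 CPM. The leukocyte markers PTPRC and CD3E, the collagens COL1A1, COL1A2 and COL3A1 and the cholangiocyte marker KRT7 were at or near 0 (at most 0.0611 CPM). Other markers on those lists were not: CD68 ran from 18.2 to 71.7 CPM and CD14 from 0.195 to 0.995 CPM on the leukocyte list, and SOX9 from 121.9 to 188.0 CPM and EPCAM from 279.8 to 364.7 CPM on the cholangiocyte list. The summed hepatocyte markers ran from 29590 to 31636 CPM at 1000 µM against 35846 to 44371 CPM in the control, and the summed stellate cell markers, nearly all of it PDGFRB, from 18.2 to 23.5 CPM against 3.18 to 3.85 CPM. Their part in the changes below was not tested, and in bulk RNA fewer cells of a type and less RNA per cell cannot be told apart.

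Sequences at the starts of 4 members are shown because these 4 (IGF1R, INSR, FOXO3 and PIK3CA) are the ones whose 1000 µM libraries all lay outside the range of the other 18. They come from RefSeq promoters on GRCh38.p14, which matched all 10 members with 18 windows of 250 bases before an annotated start. Capitals mark any match, on either strand, to GTAAACA (the core element that FOXO factors bind), TGACGTCA (the full cAMP response element), TGACG (its shorter core, which overlaps the full element) or GCGTG (the core that the aryl hydrocarbon receptor binds with ARNT). The windows of INSR (chr19:7294415-7294664, minus strand), IGF1R (chr15:98648289-98648538, plus strand) and the most upstream FOXO3 start (chr6:108559575-108559824, plus strand) hold no base of a GENCODE 29 exon, and of PIK3CA the 30 bases around its match to GTAAACA (chr3:179148197-179148226, plus strand) are given. The PIK3CA window lies before the RefSeq start but holds 106 bases of GENCODE 29 exons, since that annotation starts the gene further upstream, and 23 of the 30 bases shown, the match included, are exonic there.
INSR: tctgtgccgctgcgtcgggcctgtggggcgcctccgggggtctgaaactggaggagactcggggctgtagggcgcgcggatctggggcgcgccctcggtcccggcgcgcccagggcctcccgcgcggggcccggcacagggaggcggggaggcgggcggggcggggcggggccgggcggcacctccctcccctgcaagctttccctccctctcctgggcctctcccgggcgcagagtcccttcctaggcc
IGF1R: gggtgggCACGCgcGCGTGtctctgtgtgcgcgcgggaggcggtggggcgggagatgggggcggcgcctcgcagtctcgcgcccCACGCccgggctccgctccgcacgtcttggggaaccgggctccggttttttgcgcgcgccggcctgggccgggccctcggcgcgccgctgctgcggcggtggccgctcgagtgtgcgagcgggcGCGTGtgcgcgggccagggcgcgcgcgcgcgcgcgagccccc
FOXO3: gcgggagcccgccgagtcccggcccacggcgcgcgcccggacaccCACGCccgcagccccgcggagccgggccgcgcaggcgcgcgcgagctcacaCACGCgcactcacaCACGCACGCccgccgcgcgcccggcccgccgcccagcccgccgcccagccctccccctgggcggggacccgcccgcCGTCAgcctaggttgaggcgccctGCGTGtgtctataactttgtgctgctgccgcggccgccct
PIK3CA: agttcgttgttTGTTTACacgatgtgagcg

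The 3 whole windows were rich in G and C (78.4% for INSR, 81.2% for IGF1R and 80.4% for FOXO3). GTAAACA stood in 1 of the 18 windows, that of PIK3CA, where it began 149 bases before the RefSeq start and inside a GENCODE 29 exon, and in 2.98% of 35116 promoter windows of the same length. TGACGTCA stood in none of the 18 windows and in 1.65% of all. TGACG stood in 2 of the 18, this FOXO3 window and 1 of AKT2, and in 21.2% of all windows. GCGTG stood in 10 of the 18 windows, of 7 members, and in 32.2% of all, with 4 matches in the IGF1R window, 5 in this FOXO3 window and none in the INSR window. These are letter matches in fixed windows, and no binding was measured.

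To compare genes, CPM was divided by the length of each gene's merged GENCODE 29 exons in kilobases. On this per-length scale, AKT1 (8.54 ± 1.59 CPM per kb, SD, n = 3) and IGF1R (7.48 ± 0.912) had the highest control means, ahead of IRS1 (6.39 ± 0.786) and AKT2 (5.66 ± 0.925). FOXO3 (4.50 ± 0.296), INSR (4.19 ± 0.192) and FOXO1 (3.81 ± 0.221) followed, and both PI3K subunits were lower, with PIK3CA at 2.64 ± 0.314 and PIK3R1 at 2.59 ± 0.342 CPM per kb. Neighbours in this order overlapped in their 3 libraries except at INSR and FOXO1, where the gap was small, and at FOXO1 and PIK3CA. IRS2 came last at 0.0105 ± 0.00959 CPM per kb. At 1000 µM the per-length order was IGF1R (16.2 CPM per kb), FOXO3 (8.37), INSR (8.24), IRS1 (6.70), AKT1 (6.62), PIK3CA (5.41), FOXO1 (4.26), AKT2 (4.16) and PIK3R1 (2.44), so that FOXO3 and INSR, below IRS1 in the control, lay above it. Its neighbours overlapped for FOXO3 and INSR, for IRS1 and AKT1 and for FOXO1 and AKT2, and no others did.

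At 1000 µM caffeine the mRNAs of both receptors, of the catalytic subunit PIK3CA and of FOXO3 rose 1.86-fold to 2.17-fold, those of AKT1 and AKT2 fell by 0.37 and 0.44 on the log2 scale, and those of IRS1, PIK3R1 and FOXO1 did not pass the test against the control. Of the 9 members with enough counts to test, 6 passed an adjusted p of 0.05 in edgeR's quasi-likelihood test with Benjamini-Hochberg adjustment over 17951 features, where 57.6% of all features passed. In it, 4 members were higher, against 28.5% of features, and 2 were lower, against 29.1%. With this share of the transcriptome changed, a count of 6 of 9 is near the background, and what follows is a description of each gene. The 9 members had a median log2 fold change of 0.16, and all features one of -0.01. When the library set was a term, 4 of 9 passed, against 38.0% of features, and these were the 4 that were higher. The 3 libraries of 1000 µM lay outside the range of all other 18 libraries for the same 4 members, INSR, IGF1R, PIK3CA and FOXO3, and for 25.3% of features. Against the control libraries alone, these 4 and AKT2 did not overlap, 5 of 9 members, where 56.6% of features did not.

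**Figure D1:**
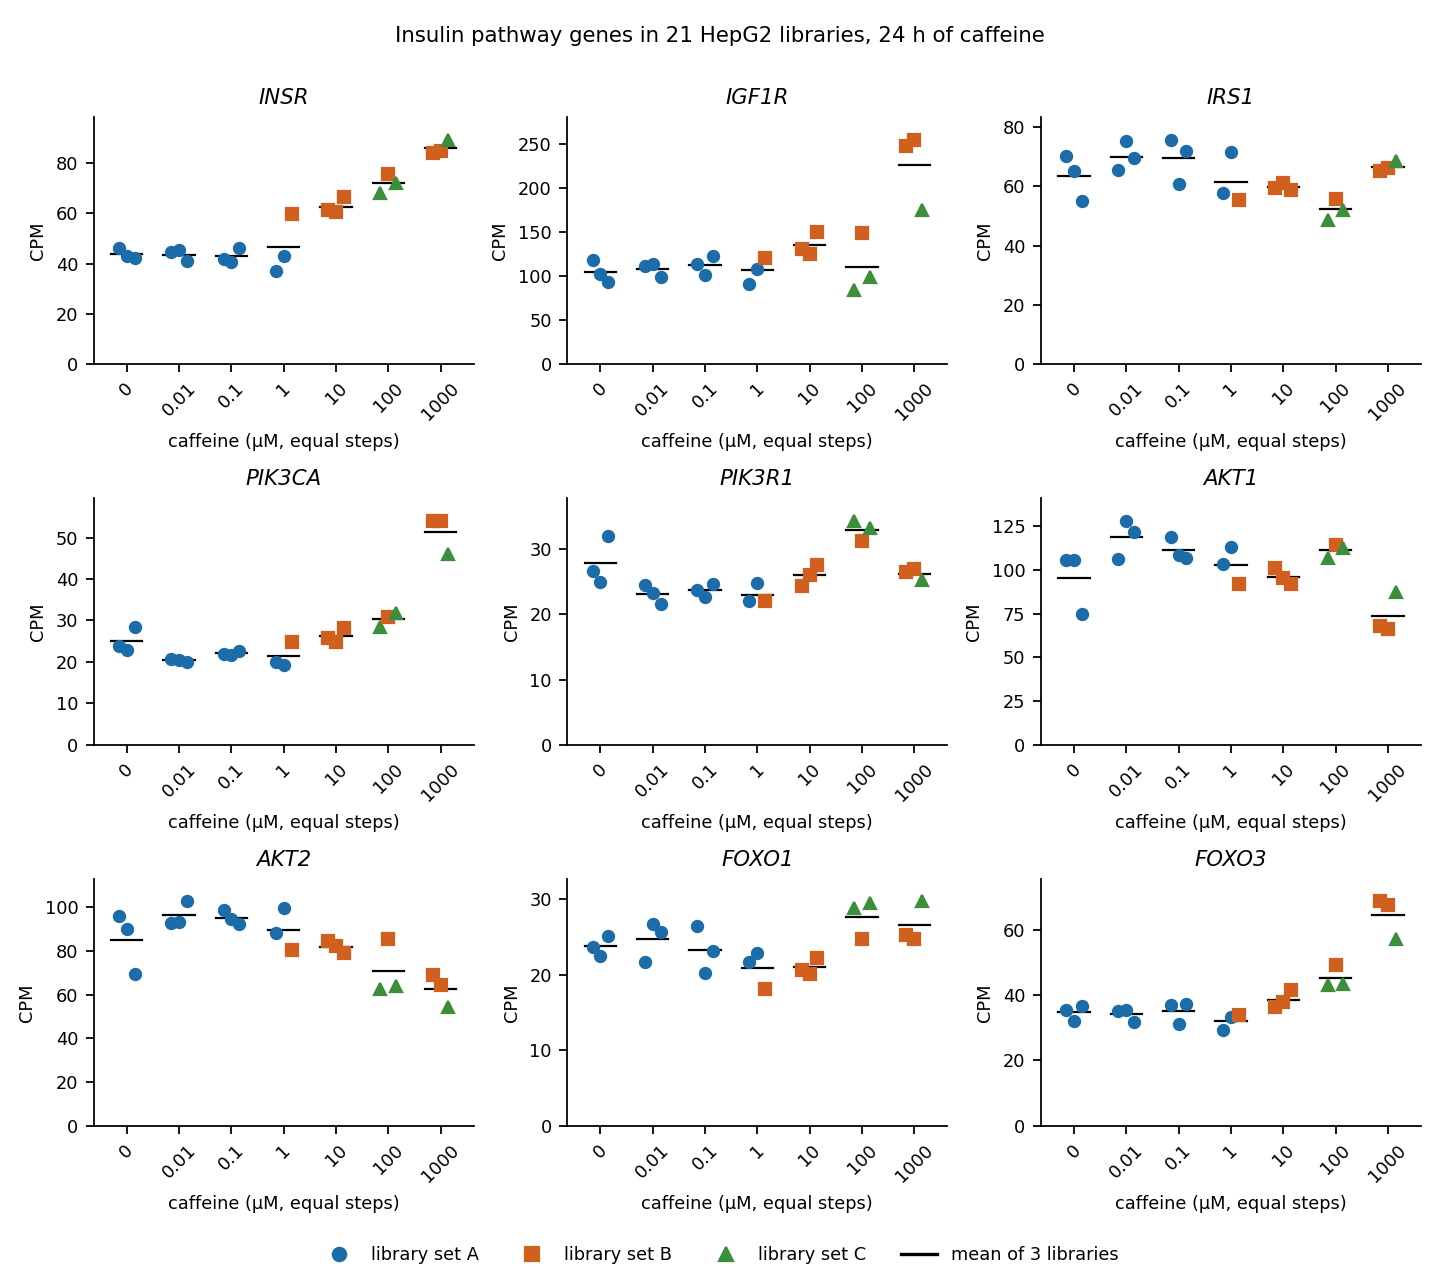
CPM (vertical axes, starting at 0) of the 9 tested genes (IRS2 is not drawn) in each of the 21 libraries at 7 caffeine doses in µM (horizontal axes, evenly spaced categories); each point is 1 library, its colour and shape give the library set and the bar is the mean of the 3 libraries. INSR, IGF1R, PIK3CA and FOXO3 have their highest 3 libraries at 1000 µM, and AKT1 and AKT2 have their lowest group means there.

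INSR (ENSG00000171105.14, chr19:7112255-7294034, minus strand) encodes the insulin receptor, a tyrosine kinase. Its level was 46.0, 43.0 and 42.2 CPM in control replicates 1, 2 and 3, 61.2, 60.6 and 66.4 CPM at 10 µM, 68.2, 75.7 and 72.1 CPM at 100 µM, and 84.1, 85.0 and 89.3 CPM at 1000 µM. These 4 groups did not overlap, and each dose lay above the one before it. The libraries of 0.01 and 0.1 µM lay between 40.6 and 46.2 CPM, as did the control. At 1 µM, replicates 1 and 2, of set A, were at 36.9 and 43.2 CPM, and replicate 3, of set B, was at 59.9 CPM, next to the 10 µM libraries. Against the control, INSR was 1.43-fold higher at 10 µM (log2 fold change 0.52 ± 0.12 SE, adjusted p 0.0096 by edgeR), 1.65-fold at 100 µM (0.72 ± 0.12, 7.6e-05) and 1.97-fold at 1000 µM (0.98 ± 0.12, 1.1e-06). In the fit with a set term, INSR had log2 fold changes of -0.06 ± 0.14 at 10 µM (adjusted p 1), 0.15 ± 0.15 at 100 µM (0.55) and 0.40 ± 0.14 at 1000 µM (0.031), so that only the highest dose passed in both fits. Inside set B, 1000 µM was above 10 µM by 0.40 ± 0.06 (adjusted p 5.0e-05).

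IGF1R (ENSG00000140443.14, chr15:98648539-98964530, plus strand) encodes the receptor for insulin-like growth factors, which shares the docking proteins with INSR. It stood at 117.9, 102.2 and 92.7 CPM in the control and at 248.2, 255.0 and 175.7 CPM at 1000 µM. All 18 libraries of the control and the 5 lower doses lay between 84.0 and 149.8 CPM, below each 1000 µM library. The rise was 2.17-fold (log2 fold change 1.12 ± 0.18, adjusted p 2.8e-05 by edgeR), with a log2 value of 1.03 ± 0.19 (2.8e-04) once the set was a term and of 0.86 ± 0.07 (1.2e-06) against 10 µM inside set B. At 100 µM the libraries split by set, with 84.0 and 98.7 CPM in the set C replicates and 148.6 CPM in the set B replicate. The 1000 µM libraries split the same way, with 175.7 CPM in the set C replicate and the other two above it. The 0.01, 0.1 and 1 µM libraries ran from 91.5 to 122.6 CPM. At 10 µM the values were 130.4, 125.1 and 149.8 CPM, all above the control, and the difference did not pass (0.37 ± 0.18, adjusted p 0.16, and 0.11 ± 0.18 with 1 once the set was a term). It passed in a fit of the control and 10 µM groups only (0.38, adjusted p 0.031).

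IRS1 (ENSG00000169047.5, chr2:226731317-226799759, minus strand), a docking protein through which both receptors reach PI3K, ran from 48.8 to 75.7 CPM over the 21 libraries. It was at 70.4, 65.3 and 55.0 CPM in the control, at 48.8, 55.9 and 52.1 CPM at 100 µM and at 65.3, 66.2 and 68.5 CPM at 1000 µM. The remaining 12 libraries, of 0.01 to 10 µM, ran from 55.4 to 75.7 CPM. The 1000 µM libraries fell inside the control range, and the 100 µM libraries overlapped the control only through control replicate 3. At 1000 µM the log2 fold change was 0.07 ± 0.11 (adjusted p 0.61 by edgeR, and 0.31 ± 0.18 with 0.20 once the set was a term), and at 100 µM it was -0.28 ± 0.11 (0.036), which with the set as a term was -0.03 ± 0.19 (0.95). The difference between 1000 and 100 µM, a contrast without the control mean, was 0.35 ± 0.11 (0.012), and 0.34 ± 0.10 (0.013) with the set as a term. Without 100 µM replicate 1 it was 0.30, with an adjusted p of 0.062.

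IRS2 (ENSG00000185950.9, chr13:109752698-109786568, minus strand), the second docking protein of the hepatic pathway, was nearly absent from the counts. It drew 5, 4 and 0 reads in the control libraries and 3, 6 and 8 reads at 1000 µM, and between 0 and 9 reads in each of the 21 libraries. It failed the minimum count and was not tested, and no fold change is given. In the same libraries IRS1 drew between 1181 and 2723 reads. How the counting treated reads of IRS2 is not given in the sources used here, so these counts are no measure of its transcription beyond this table.

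PIK3CA (ENSG00000121879.5, chr3:179148114-179240093, plus strand) encodes the catalytic subunit p110 alpha. It was at 24.0, 22.9 and 28.5 CPM in the control, at 28.5, 30.9 and 31.9 CPM at 100 µM and at 54.1, 54.1 and 46.0 CPM at 1000 µM. Each 1000 µM library lay above all 18 others, which ran from 19.1 to 31.9 CPM, and the lowest 100 µM library lay at the level of the highest control library. The rise at 1000 µM was 2.05-fold (log2 fold change 1.04 ± 0.10, adjusted p 8.3e-08 by edgeR), 0.74 ± 0.16 (9.6e-04) with the set as a term and 1.01 ± 0.07 (4.6e-08) against 10 µM inside set B. At 100 µM it was 0.28 ± 0.10 (0.035), and with the set as a term 0.03 ± 0.16 (0.94). KCNMB3, a potassium channel subunit gene on the opposite strand, shares 3403 exon bases with PIK3CA in GENCODE 29. It stood at 5.87, 5.22 and 5.71 CPM in the control and at 23.8, 23.9 and 17.7 CPM at 1000 µM. Whether strand was used in counting is not given in the sources used here, so reads from the shared bases cannot be told apart between these genes. The PIK3CA mean went from 25.1 ± 2.98 to 51.4 ± 4.69 CPM (SD, n = 3).

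PIK3R1 (ENSG00000145675.15, chr5:68215720-68301821, plus strand) encodes the regulatory subunit p85 alpha and its shorter forms, which hold the catalytic subunit at the receptor. Its values were 26.7, 25.0 and 32.1 CPM in the control, 34.4, 31.3 and 33.3 CPM at 100 µM and 26.5, 27.0 and 25.2 CPM at 1000 µM. The 12 libraries of 0.01 to 10 µM ran from 21.6 to 27.6 CPM. The 1000 µM libraries lay inside the control range, while at 100 µM only replicate 2 was below control replicate 3. The log2 fold change against the control was -0.09 ± 0.09 at 1000 µM (adjusted p 0.43 by edgeR, and -0.003 ± 0.17 once the set was a term) and 0.24 ± 0.09 at 100 µM (0.039, and 0.32 ± 0.18 with 0.24 once the set was a term). From 100 to 1000 µM it fell by 0.33 ± 0.09 (0.0073), and by 0.32 ± 0.10 (0.010) with the set as a term. Inside set B, 1000 µM differed from 10 µM by 0.00 ± 0.07 (0.96).

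**Figure D2:**
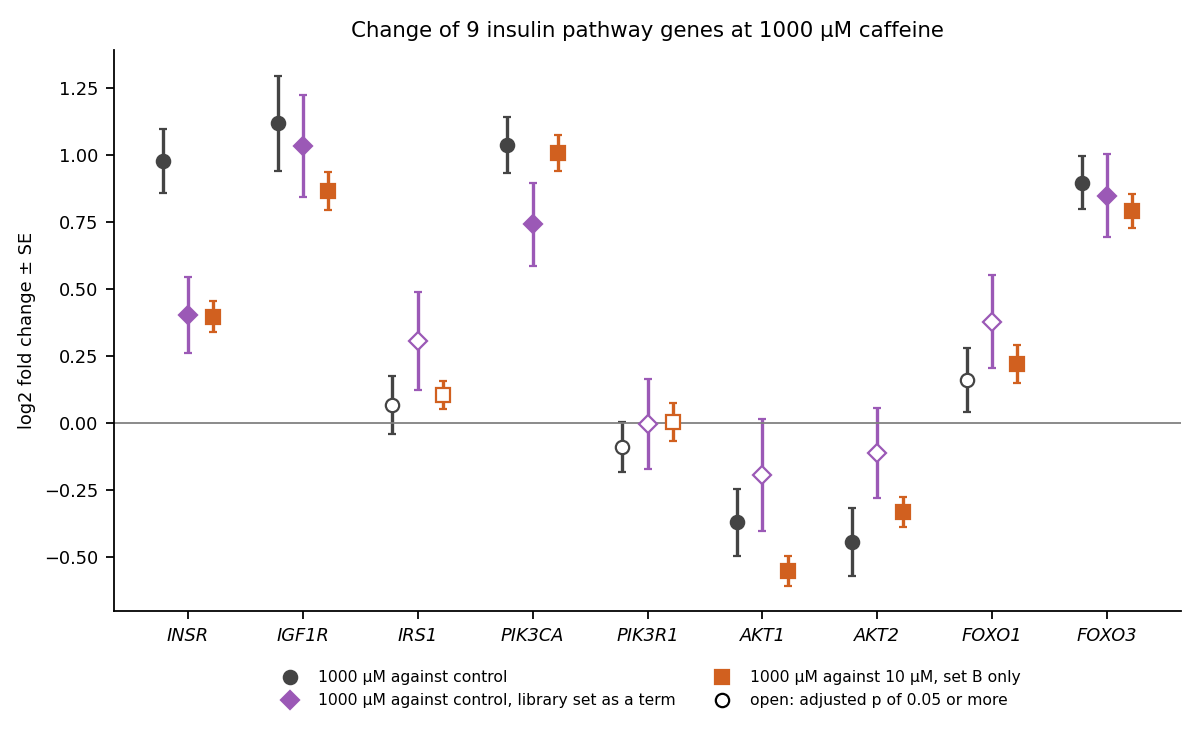
Log2 fold changes (vertical axis) of the 9 tested genes in 3 comparisons: 1000 µM against control over all 21 libraries, the same with the library set as a term, and 1000 against 10 µM inside set B; points are estimates, bars are ±1 SE and open points have an adjusted p of 0.05 or more. INSR, IGF1R, PIK3CA and FOXO3 lie above 0 with filled points in all 3, and AKT1 and AKT2 lie below 0 with open points once the set is a term.

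AKT1 and AKT2 encode closely related kinases; AKT2 is the form most tied to insulin action on glucose. AKT1 (ENSG00000142208.16, chr14:104769349-104795751, minus strand) was at 105.6, 105.5 and 74.8 CPM in the control, 106.8, 114.2 and 112.4 CPM at 100 µM and 67.9, 66.3 and 87.3 CPM at 1000 µM. The 12 libraries of 0.01 to 10 µM ran from 91.9 to 128.2 CPM. The 1000 µM group overlapped the control, since control replicate 3 lay below 1000 µM replicate 3, but all 3 of its libraries lay below all 3 of the 100 µM group. The log2 fold change at 1000 µM was -0.37 ± 0.12 against the control (adjusted p 0.016 by edgeR) and -0.59 ± 0.13 against 100 µM (7.9e-04). The first of these lost its call with the set as a term (-0.19 ± 0.21, 0.50) and without control replicate 1 (-0.29, 0.082), control replicate 2 (-0.29, 0.085), 1000 µM replicate 1 (-0.31, 0.073) or 1000 µM replicate 2 (-0.30, 0.081). The comparison with 100 µM did not (-0.55 ± 0.12, 8.2e-04, with the set as a term), nor did that with 10 µM inside set B (-0.55 ± 0.06, 2.7e-06). An antisense gene shares 663 exon bases with AKT1, so its count carries the same doubt over strand as that of PIK3CA.

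AKT2 (ENSG00000105221.17, chr19:40230317-40285536, minus strand) was at 95.8, 90.2 and 69.4 CPM in the control, 62.6, 85.3 and 63.7 CPM at 100 µM and 68.9, 64.2 and 54.4 CPM at 1000 µM. Those of 0.01 to 10 µM ran from 78.8 to 102.6 CPM. All 3 libraries of 1000 µM lay below the control, the highest of them by less than 1 CPM. The 100 µM group spanned both, and its set B replicate was the high one. At 1000 µM the log2 fold change was -0.44 ± 0.13 (adjusted p 0.0055 by edgeR), -0.11 ± 0.17 (0.64) with the set as a term, and -0.33 ± 0.06 (2.2e-04) against 10 µM inside set B. Against 100 µM it was -0.18 ± 0.13 (0.28), and -0.29 ± 0.10 (0.020) with the set as a term.

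FOXO1 (ENSG00000150907.8, chr13:40469953-40666597, minus strand) is the FOXO factor best known for driving gluconeogenic genes in liver. It was at 23.7, 22.4 and 25.2 CPM in the control, 20.5, 20.1 and 22.2 CPM at 10 µM, 28.7, 24.7 and 29.5 CPM at 100 µM and 25.2, 24.7 and 29.7 CPM at 1000 µM. The 9 libraries of 0.01, 0.1 and 1 µM ran from 18.03 to 26.7 CPM. The 100 and 1000 µM groups overlapped each other and the control, and the 10 µM group lay just below the control. At 1000 µM the log2 fold change was 0.16 ± 0.12 (adjusted p 0.25 by edgeR), and 0.38 ± 0.17 (0.096) with the set as a term. Inside set B, 1000 µM was above 10 µM by 0.22 ± 0.07 (0.015). That call was lost without 10 µM replicate 1 (0.21, adjusted p 0.053), 1000 µM replicate 1 (0.22, 0.072) or 1000 µM replicate 2 (0.24, 0.052). The lincRNA LINC00598 shares 269 exon bases with FOXO1 on the same strand and had at most 1.08 CPM.

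FOXO3 (ENSG00000118689.15, chr6:108559835-108684774, plus strand), a related FOXO factor tied to stress resistance and autophagy, stood at 35.5, 32.2 and 36.5 CPM in the control, 36.5, 37.7 and 41.4 CPM at 10 µM, 43.1, 49.2 and 43.5 CPM at 100 µM and 68.7, 67.7 and 57.3 CPM at 1000 µM. The 9 libraries of the 3 lowest doses ran from 29.4 to 37.4 CPM. The 100 µM libraries lay above all control libraries and the 1000 µM libraries above all 18 others. The rise was 1.30-fold at 100 µM (log2 fold change 0.38 ± 0.10, adjusted p 0.0036 by edgeR) and 1.86-fold at 1000 µM (0.90 ± 0.10, 2.6e-07). With the set as a term these were 0.41 ± 0.16 (0.089) and 0.85 ± 0.15 (2.5e-04), and inside set B 1000 µM was above 10 µM by 0.79 ± 0.06 (2.9e-07). FOXO3B, a copy nearly identical to FOXO3 on another chromosome, went the other way, from 7.21, 5.48 and 4.06 CPM in the control to 2.37, 1.74 and 2.28 CPM at 1000 µM. How reads shared by the copies were assigned is not given in the sources used here. With the counts of both added, FOXO3 was still higher at 1000 µM (0.73), and the 100 µM call was lost (0.23, adjusted p 0.059).

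Below 10 µM no member passed. At 0.01, 0.1 and 1 µM the edgeR log2 fold changes of the 9 members ran from -0.30 to 0.32, from -0.24 to 0.22 and from -0.28 to 0.11. None of 9 was called at any of these doses, where 0.0279%, 0% and 0.106% of all features were called. At an unadjusted p under 0.05 there were 3, 1 and 2 members at the 3 doses, where 15.0%, 9.48% and 15.7% of features were, and the smallest adjusted p was 0.17. DESeq2 and limma-voom called none either. No member was called with the set as a term (3.02%, 0.0223% and 0.629% of features) or inside set A (0.104%, 0% and 0% of 17311 features). At both 0.01 and 0.1 µM, PIK3CA and PIK3R1 lay below the 3 control libraries and AKT1 above them, 3 of 9 members at each dose, where 23.1% and 19.2% of features did not overlap. At 1 µM PIK3R1 lay below the control, 1 of 9 members, where 17.3% of features did not overlap. PIK3CA was at 20.7, 20.4 and 19.97 CPM at 0.01 µM, and AKT1 at 106.4, 128.2 and 121.8 CPM. These comparisons share their 3 control libraries. Among them, control replicate 3 was the highest for PIK3CA, PIK3R1, FOXO1 and FOXO3 and the lowest for INSR, IGF1R, IRS1, AKT1 and AKT2. By a chi-square of the counts per gene, it differed from control replicates 1 and 2 by 50.9 and 42.0. Control replicates 1 and 2 differed from each other by 9.76.

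At 10 µM 1 of 9 members was called, INSR, which was higher, against 14.8% of features called and 7.27% higher, and at 100 µM 5 of 9 were called, against 46.6%. The 4 that were higher at 100 µM were INSR, PIK3CA, PIK3R1 and FOXO3 (23.6% of features were higher) and the 1 that was lower was IRS1 (22.9%). With the set as a term none of the 9 was called at 10 µM (0.0279% of features) or at 100 µM (17.3%), and at an unadjusted p under 0.05 there were 0 at 10 µM (4.94% of features) and 1, FOXO3, at 100 µM (30.0%). The groups did not overlap with the control for 3 of 9 members at 10 µM (INSR and IGF1R higher, FOXO1 lower), where 39.8% of features did not, and for 3 of 9 at 100 µM (INSR, AKT1 and FOXO3 higher), where 51.1% did not. The 100 µM count of calls fell to 2 without control replicate 1, control replicate 2 or 100 µM replicate 3, and to 3 without 100 µM replicate 1. The share of all features called was not computed for these fits, so these counts cannot be set against a background.

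Comparisons among the treated groups do not use the control means, and most members passed in them. From 100 to 1000 µM 6 of 9 were called, against 44.0% of features: IGF1R, PIK3CA, FOXO3 and IRS1 were higher (21.8% of features) and PIK3R1 and AKT1 lower (22.3%). IGF1R differed by 1.03 ± 0.18 on the log2 scale (adjusted p 1.2e-04 by edgeR), PIK3CA by 0.76 ± 0.10 (8.6e-06) and FOXO3 by 0.51 ± 0.10 (3.1e-04). INSR differed by 0.26 ± 0.12 (0.086). With the set as a term 8 of 9 were called, against 46.3% of features; INSR (0.25 ± 0.08, 0.014) and AKT2 were added, and FOXO1 (0.02 ± 0.10, 0.88) was the one not called. Inside set B, where 3 libraries of 10 µM met 2 of 1000 µM and mitochondrial shares were alike, 7 of 9 were called, against 65.1% of 18323 features. INSR, IGF1R, PIK3CA, FOXO1 and FOXO3 were higher (31.5% of features), AKT1 and AKT2 were lower (33.6%), and IRS1 (0.11 ± 0.05, 0.099) and PIK3R1 were not called. The joint test over the 7 groups called 9 of 9, against 73.6% of features, and with the set as a term 6 of 9, against 59.8%.

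The ratio of paired members inside a library does not depend on how libraries are scaled. In the control PIK3R1 had slightly more reads than PIK3CA, with log2 ratios of 0.16, 0.13 and 0.17 in the 3 libraries, and at 1000 µM it had fewer, with ratios of -1.03, -1.005 and -0.86. The other 15 libraries ran from -0.17 to 0.38, above all 3 of 1000 µM. The mean moved from 0.15 ± 0.02 to -0.97 ± 0.09 (SD, n = 3 each), a difference of -1.12 with an exact permutation p of 0.1 (2-sided), the smallest that 3 against 3 libraries allow, and of 0.2 after adjustment over 4 ratios. Inside set B the difference between 1000 and 10 µM was -1.002. The doubt over reads from bases shared with KCNMB3, given above for PIK3CA, holds for this ratio too.

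FOXO1 fell relative to FOXO3, from log2 ratios of -0.59, -0.52 and -0.54 in the control to -1.45, -1.45 and -0.95 at 1000 µM. The groups did not overlap, and the high value at 1000 µM was that of the set C library. The difference was -0.73 (exact permutation p 0.1, adjusted 0.2), and -0.57 between 1000 and 10 µM inside set B. In the 10 µM libraries, all of set B, the FOXO ratio was between -0.91 and -0.83, also below the control. The doubt over reads shared with FOXO3B, given above for FOXO3, holds for the FOXO ratio too. The INSR to IGF1R ratio was -1.25 ± 0.11 in the control and -1.37 ± 0.35 at 1000 µM, a difference of -0.13 (exact permutation p 0.6, adjusted 0.8). At 100 µM this ratio was -0.30 and -0.45 in the set C libraries and -0.97 in the set B library. Its 1000 µM libraries also split by set, with the set C library at -0.98 and the others at -1.56 and -1.59. Inside set B the difference between 1000 and 10 µM was -0.47 for this ratio. No ratio of IRS2 to IRS1 is given because of the low IRS2 counts. For AKT1 to AKT2 the ratio was 0.16 ± 0.06 and 0.24 ± 0.39, a difference of 0.08 (exact permutation p 1). This ratio was 0.77 and 0.82 in the set C libraries of 100 µM and 0.42 in the set B library of that dose. At 1000 µM it was 0.68 in the set C library and -0.02 and 0.05 in the set B libraries, so that it was higher in set C at both doses and lower at 1000 µM in both sets.

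**Figure D3:**
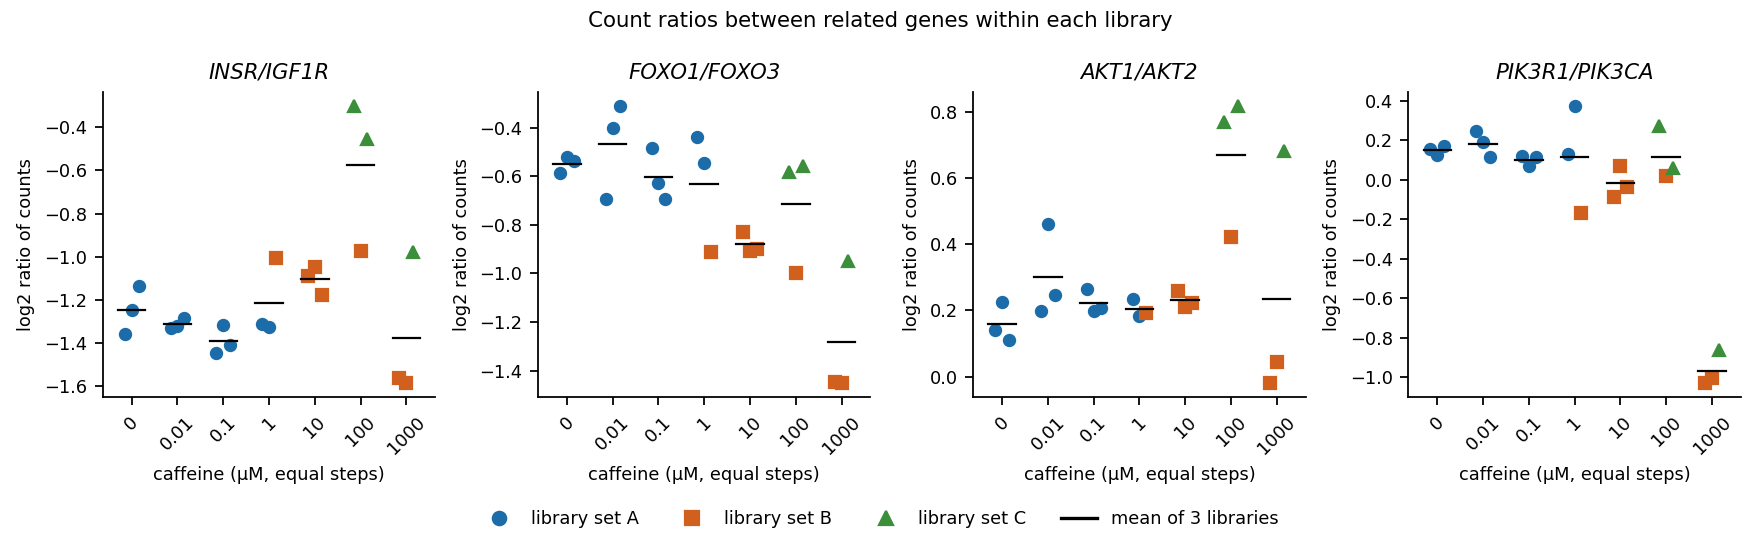
Log2 ratio of read counts inside each library (vertical axes) for 4 pairs of genes at 7 caffeine doses in µM (horizontal axes, evenly spaced categories); each point is 1 of 21 libraries, coloured by library set. The PIK3R1 to PIK3CA ratio drops at 1000 µM in all 3 libraries, while the AKT1 to AKT2 ratio is highest in the 3 set C libraries.

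The genes around the members were read from 9 lists by role, which name 90 genes, 83 of them tested. At 1000 µM 35 were higher and 28 lower than the control, 63 of 83 against 57.6% of all features, with a median log2 fold change of -0.07. With the set as a term 28 were higher and 21 lower, 49 of 83 against 38.0% of features, and inside set B 36 and 38, 74 of 83 against 65.1%. The genes named below as changed at 1000 µM also passed with the set as a term, in the same direction, except PIK3CB.

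Among the docking and adaptor proteins next to the IRS proteins, 5 of 9 were higher and 3 lower at 1000 µM, where 28.5% of all features were higher and 29.1% lower. GAB1, a docking protein used by growth factor receptors, went from 7.97 ± 1.43 to 22.6 ± 0.137 CPM (SD, n = 3), and passed with the set as a term at a log2 fold change of 1.80. CRK, an adaptor that binds phosphorylated docking proteins, rose from 69.1 ± 5.97 to 112.9 ± 9.05 CPM. Among the proteins that restrain the receptor or its docking, 4 of 10 were higher and 4 lower (28.5% and 29.1% of features). GRB10, which binds the active receptor kinase and inhibits it, rose from 4.41 ± 0.323 to 32.0 ± 3.78 CPM, by 2.85 ± 0.11 on the log2 scale (adjusted p 1.7e-13 by edgeR) and by 2.15 ± 0.08 inside set B. TRIB3, a pseudokinase reported to bind AKT, rose from 132.1 ± 18.8 to 402.1 ± 56.2 CPM, and ENPP1, a membrane protein that inhibits INSR, from 123.2 ± 11.4 to 237.2 ± 23.4 CPM.

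Of the other PI3K subunits 2 of 6 were higher and 2 lower (28.5% and 29.1% of features). PIK3R3, a regulatory subunit that like PIK3R1 can partner PIK3CA, fell from 32.9 ± 2.70 to 5.08 ± 0.915 CPM. Its log2 fold change was -2.69 ± 0.13 (adjusted p 5.2e-12 by edgeR), -2.77 with the set as a term and -2.71 inside set B. The catalytic subunit PIK3CD rose from 61.4 ± 9.12 to 108.1 ± 4.67 CPM, and PIK3CB rose from 39.8 ± 4.00 to 56.8 ± 1.00 CPM, though PIK3CB lost its call with the set as a term (0.29, adjusted p 0.087). Of the lipid phosphatases and PDK1, 5 of 7 were higher and 1 lower, against the same shares. PDPK1, the kinase that phosphorylates AKT at the membrane, rose from 156.0 ± 8.03 to 347.1 ± 14.9 CPM. INPP5E, an inositol lipid phosphatase, rose from 3.24 ± 0.769 to 7.83 ± 1.63 CPM.

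Around AKT, 4 of 9 partners were higher and 3 lower (28.5% and 29.1% of features). The mTORC2 subunit RICTOR rose from 31.7 ± 5.47 to 88.4 ± 17.7 CPM, while another mTORC2 subunit, MAPKAP1, fell from 102.0 ± 6.02 to 59.8 ± 4.23 CPM. SGK3, a kinase related to AKT, rose from 18.6 ± 1.54 to 38.4 ± 0.847 CPM. In the mTORC1 arm 3 of 10 were higher and 3 lower, against the same shares, and the 3 with the smallest p all fell: AKT1S1, an AKT substrate that restrains mTORC1, from 151.9 ± 16.5 to 51.9 ± 17.1 CPM, RPS6KB2, an S6 kinase, from 60.5 ± 11.02 to 24.6 ± 4.64 CPM, and DEPTOR, an mTOR inhibitor, from 3.12 ± 0.316 to 0.593 ± 0.0501 CPM. Among 5 AKT substrates and other FOXO genes, TBC1D4, which AKT controls in glucose transporter traffic, rose from 57.2 ± 4.96 to 136.0 ± 5.84 CPM and GSK3B fell from 83.5 ± 2.80 to 60.6 ± 8.99 CPM.

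At the far end of the pathway, 11 of 20 tested FOXO targets were higher at 1000 µM and 6 lower, with a median log2 fold change of 0.43, where 28.5% of all features were higher and 29.1% lower. With the set as a term 8 were higher and 5 lower (38.0% of features called), with a median of 0.23, and inside set B 10 were higher and 7 lower (31.5% and 33.6% of features). IGFBP1, an insulin-suppressed binding protein for insulin-like growth factors, rose from 103.9 ± 9.52 to 3309 ± 654.5 CPM, by 4.99 ± 0.15 on the log2 scale (adjusted p 1.8e-14 by edgeR) and by 4.55 with the set as a term. G6PC, the last enzyme of gluconeogenesis, rose from 0.487 ± 0.115 to 8.52 ± 0.861 CPM, and PPARGC1A, a coactivator of that programme, from 17.97 ± 1.53 to 71.8 ± 7.95 CPM. Other listed FOXO targets fell, such as CAT, which encodes catalase, from 209.2 ± 14.8 to 81.1 ± 2.98 CPM, and SESN1, a stress-induced sestrin, from 45.9 ± 5.36 to 23.5 ± 1.35 CPM; these 2 were named after their values were seen. Of the genes that insulin induces for fat synthesis, 0 of 7 were higher and 5 lower (28.5% and 29.1% of all features). With the set as a term 0 were higher and 4 lower (38.0% of features called). Inside set B 7 of 7 were lower (33.6% of features). FASN went from 1116 ± 315.6 to 262.0 ± 99.3 CPM, the desaturase SCD from 3353 ± 134.0 to 1059 ± 43.0 CPM, and PNPLA3 from 150.0 ± 10.3 to 31.2 ± 3.72 CPM. At 100 µM the same list had 4 genes higher and 1 lower than the control (23.6% and 22.9% of features), and with the set as a term 1 and 1 (17.3% of features called). The FOXO targets had 4 higher and 7 lower at 100 µM, with a median log2 fold change of -0.13, against the same shares. With the set as a term 2 of them were higher and 5 lower, with a median of -0.22.

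**Figure D4:**
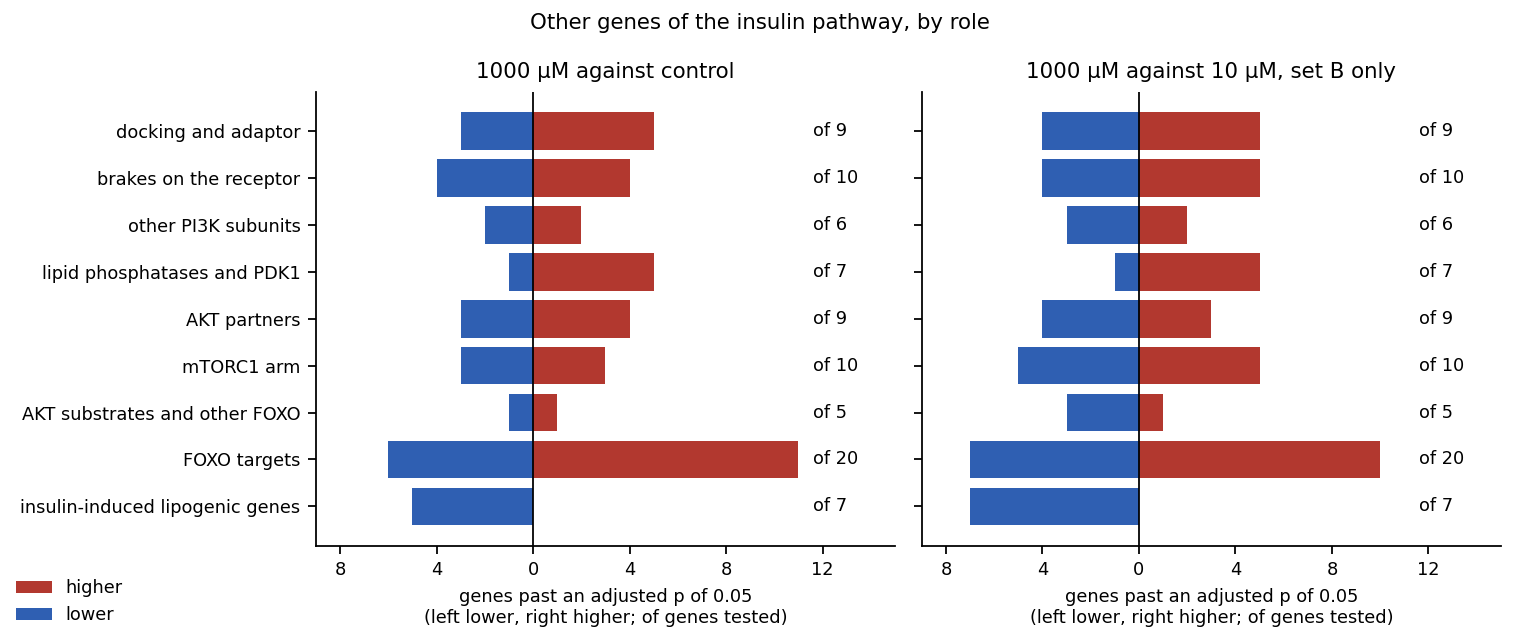
Number of genes of each role list (vertical axis) past an adjusted p of 0.05, higher to the right of 0 and lower to the left (horizontal axis), for 1000 µM against control (left) and 1000 against 10 µM inside set B (right), with the number tested beside each bar. The lipogenic list has no gene that is higher in either, and FOXO targets go both ways.

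Several members varied together once the mean of each library set was removed, over 21 libraries that share the dose series. Pearson's r was 0.93 for FOXO3 and INSR, 0.92 for FOXO3 and PIK3CA, 0.92 for INSR and IGF1R and 0.93 for AKT1 and AKT2. PIK3CA and AKT1 ran opposite to each other, with an r of -0.80. Among 10616 named features with a mean of at least 5 CPM, those most like PIK3CA by this measure were SPAST, SOCS6 and RASA1 (r of 0.99 each). FOXN3 (0.99), SLC7A2 (0.98) and LRP6 (0.98) were most like FOXO3, and HIPK2 (0.96), NFATC3 (0.95) and BLTP3A (0.95) were most like INSR.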

How the data were processed

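RNA from 21 HepG2 libraries was measured by RNA-seq. The authors deposited raw counts per feature, whole numbers without normalization; per the submitters' processing notes HISAT2, DESeq2 and GRCh38 were used, and the annotation release, counting tool and use of strand are not given in the sources used here. A further 21 per-sample columns of the table, and 2 columns of sums and medians, were not used. Gene symbols and coordinates were matched by Ensembl identifier to GENCODE 29, whose gene models are in part older than the table's.

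In R 4.3.3, edgeR 4.0.16 filtered features by its default rule per group, scaled by TMM and tested each dose against the control in 1 quasi-likelihood fit over 21 libraries, with Benjamini-Hochberg adjustment over 17951 features and a threshold of 0.05. Fits with the library set as a term and inside single sets used the same steps. Pair ratios were tested by exact permutation. The scripts were tested on simulated data with 200 changed genes and an assumed set difference. For 1000 µM against the control, the fit without a set term made 77 false calls. It recovered 68 of 100 changes of 2-fold and 80 of 100 of 3-fold. With the set as a term there were 7 false calls, and 47 and 64 were recovered. DESeq2 1.42.0 and limma 3.58.1 (voom) served as alternatives, with other filters, a replicate block and each library left out.

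The members and lists were chosen with earlier results of these data known. Text names all members, up to 3 called genes per role list with the smallest p at 1000 µM, and the 3 features most like each of the 3 members with the largest joint F. Some genes that this rule names are not reported here. The edgeR p-values rest on a spread between cultures that is estimated over all groups of a fit together. Without a set term, that spread also holds the set difference in groups that mix library sets.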

Additional observations from a re-analysis of the deposited data

How the results depend on the processing

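The rises of INSR, IGF1R, PIK3CA and FOXO3 at 1000 µM against the control kept their direction and passed under limma-voom, size factors or the Wald test of DESeq2, both other filters (none, or at least 5 CPM on average), removal of mitochondrial features, a replicate block, the library set as a term, a fit of control and that dose only, and each library left out. The number of members called at 100 µM, 5, became 3 without a filter, 0 with the library set as a term and 2 in a fit of control and 100 µM only, and that at 10 µM, 1, became 0 and 2 under the latter pair of fits. Apart from the set-term fit, the share of all features called was not computed for these fits. Nor was it for the replicate block or with a library left out, so those counts cannot be set against a background. With a library left out in turn, members called numbered 0 at 0.01, 0.1 and 1 µM, 1 at 10 µM, from 2 to 6 for 100 µM, from 5 to 6 for 1000 µM against the control and from 5 to 7 against 100 µM, 6 to 7 inside set B and 7 to 9 in the joint test, and pathway genes called 60 to 67; pair ratio differences ran from -0.15 to 0.20 for AKT1/AKT2, -0.90 to -0.65 for FOXO1/FOXO3, -0.33 to -0.02 for INSR/IGF1R and -1.17 to -1.09 for PIK3R1/PIK3CA. The library set as a term turned the sign at 1 µM of INSR (-0.13), IGF1R (-0.06) and IRS1 (0.02), none called in either fit, at 10 µM of INSR (-0.059), IRS1 (0.13), PIK3CA (-0.27), AKT2 (0.16) and FOXO1 (0.12), at 100 µM of AKT2 (0.18), and of FOXO1 for 1000 against 100 µM (0.023); the cause was not tested. Leaving out 1 library turned signs of log2 fold changes that had not passed: at 10 µM AKT1 (-0.13 to 0.091), AKT2 (-0.18 to 0.038) and PIK3R1 (-0.17 to 0.017), at 100 µM IGF1R (-0.19 to 0.25), at 1000 µM IRS1 (-0.025 to 0.14) and PIK3R1 (-0.16 to 0.022), and inside set B PIK3R1 (-0.041 to 0.051). AKT1 at 1000 µM also lost its call in a fit of control and 1000 µM only (-0.37, adjusted p 0.11), FOXO1 inside set B under the DESeq2 Wald test (0.24, adjusted p 0.054), and IRS1 inside set B gained one with a mean of at least 5 CPM (0.13, adjusted p 0.033). The replicate block took the call of PIK3R1 at 100 µM (0.24, adjusted p 0.052), left 4 members called there and 6 at 1000 µM, and changed no other call. In 0 of 21 pairs of groups did every same-numbered pair of libraries correlate above 0.1 in its deviations from the group means. Libraries of different numbers were not compared, and deviations in the groups split by library set hold the set difference. Whether replicate numbers pair the libraries therefore stays undecided. Adding FOXO3B counts to FOXO3 was chosen after seeing the data. IRS2, with at most 9 reads in a library, could not be tested.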
